A study of Rattus norvegicus with 2 samples.

Results

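Cell death genes were followed in rat liver after senecionine, a hepatotoxic pyrrolizidine alkaloid of ragwort-type plants. The group comprised 45 genes chosen by name, with earlier results of these data known. They were BCL2 family proteins, caspases, death ligands, adaptors and kinases of death receptor complexes, caspase inhibitors, and genes of necroptosis, pyroptosis and DNA fragmentation. The p53 targets Bax, Bbc3, Pmaip1 and Fas were not members. A member was found through a probe whose RefSeq accession maps to it, which gave 40 of the 45 at least 1 probe, out of 13837 named genes on the array. Fadd, Traf1, Mlkl, Gsdmd and Cideb had no probe that could be named. Of the 40, 29 had a signal well above background on both arrays and 11 on senecionine alone.

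The senecionine group was Sprague Dawley rats given 35 mg/kg by the intragastric route, and the control group was Sprague Dawley rats given sodium chloride. Livers of both groups were taken at 36 h. RNA of 3 animals per group was pooled and put on 1 array with 1 dye (Cy3), so there was no replicate, no spread between animals and no test, and every difference below is between 2 arrays. Sex and age are not in the labels used here.

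As background, apoptosis runs through 2 linked routes. In the mitochondrial route, BH3-only proteins of the BCL2 family sense damage and neutralise survival proteins such as BCL-XL and MCL1, after which BAX and BAK open the outer mitochondrial membrane, cytochrome c escapes and APAF1 assembles the apoptosome that activates caspase-9. In the death receptor route, FAS, TNF or TRAIL receptors recruit FADD, caspase-8 and its inhibitor cFLIP, and in hepatocytes the signal is amplified through BID. Where caspase-8 is blocked, RIPK1 and RIPK3 can instead activate MLKL and kill the cell by necroptosis. Hepatocytes depend on BCL-XL and MCL1 for survival.

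Values below are spot signals divided by the array's own 75th percentile, called scaled signal. They compare 1 probe between arrays and do not rank genes against each other. A log2 ratio is senecionine minus control, with Agilent's spot error, which covers measurement within an array only. A gene was called higher or lower at 2-fold. The arrays differed in sensitivity: 64.1% of senecionine spots and 44.4% of control spots stood well above background, and the lowest scaled signal so called was 0.0806 on the senecionine array and 0.204 on the control array. The hepatocyte markers Alb, Serpina1, Fgb, Hnf4a and Cps1 were detected on both arrays, and the other 3 listed (Ttr, Apoa1 and Tf) were left out by outlier flags. Some neuron and glia markers were also present in the control pool. Over 11 of the 15 listed, the summed scaled signal was 4.74 on the senecionine array and 71.2 on the control array. Tubb3 alone had 2.79 on the senecionine array and 55.7 on the control array. Snap25 and Nefm were detected in control only, Gfap and Syt1 with senecionine only, and Stmn2, Map2 and Gad1 on neither array. Pooled tissue cannot tell apart fewer cells of a type from less RNA per cell.

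More members were higher than lower. Of the 29 with both signals, 9 passed 2-fold upwards (31.0%, against 11.2% of all 7803 measured genes) and 2 passed it downwards (6.9%, against 17.7% of all). The 9 higher members were Mcl1, Ripk2, Cflar, Cidea, Bcl2l1, Ripk3, Casp2, Casp1 and Apaf1, and the lower ones were Bmf and Aifm1. The remaining 18 lay within 2-fold. The members' median log2 ratio was 0.16, beside -0.14 for all measured genes. With normexp background correction 5 members were higher (17.2%, against 7.86% of all genes) and 1 was lower (3.45%, against 9.75% of all). With the opposing probes of Ripk2 and Bcl2l1, described below, in place of their brightest, 7 members were higher and 3 lower. Of 16 members whose probe is in the authors' deposited table, a list of probes past 2-fold, 15 are higher there and 1 is lower, beside 4003 higher (54.1%) and 3401 lower of all 7404 probes in that table.

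**Figure D1:**
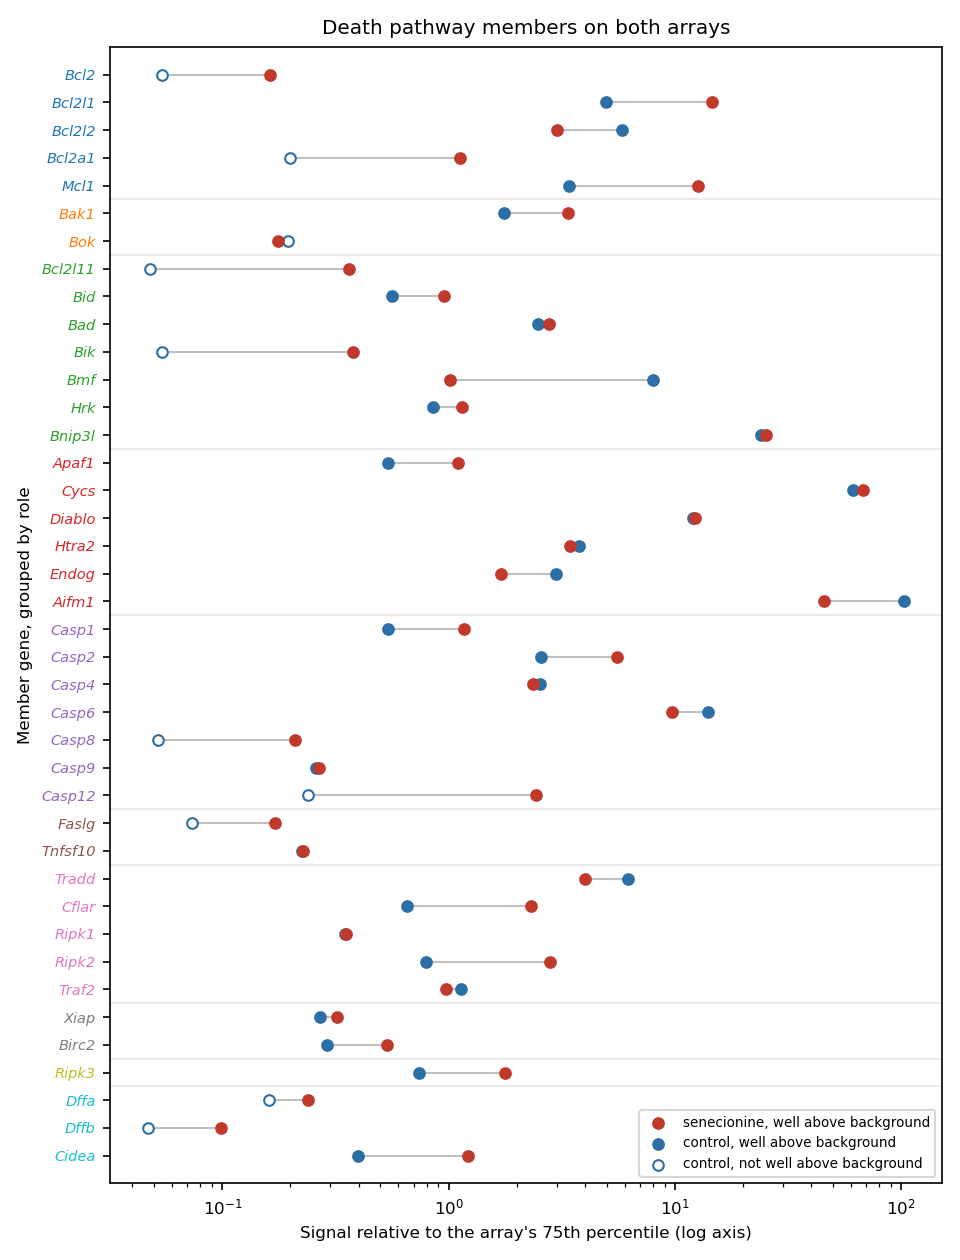
Scaled signal (log axis) of the 40 members with a named probe, one row per gene and grouped by role (colour of the gene name), on the senecionine array (red) and the control array (blue, open where not well above background). Points are compared within a row only; the widest gap to the left of control is that of Bmf, and Casp12 lies furthest right of an open control point among members with a bound past 2-fold.

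**Figure D2:**
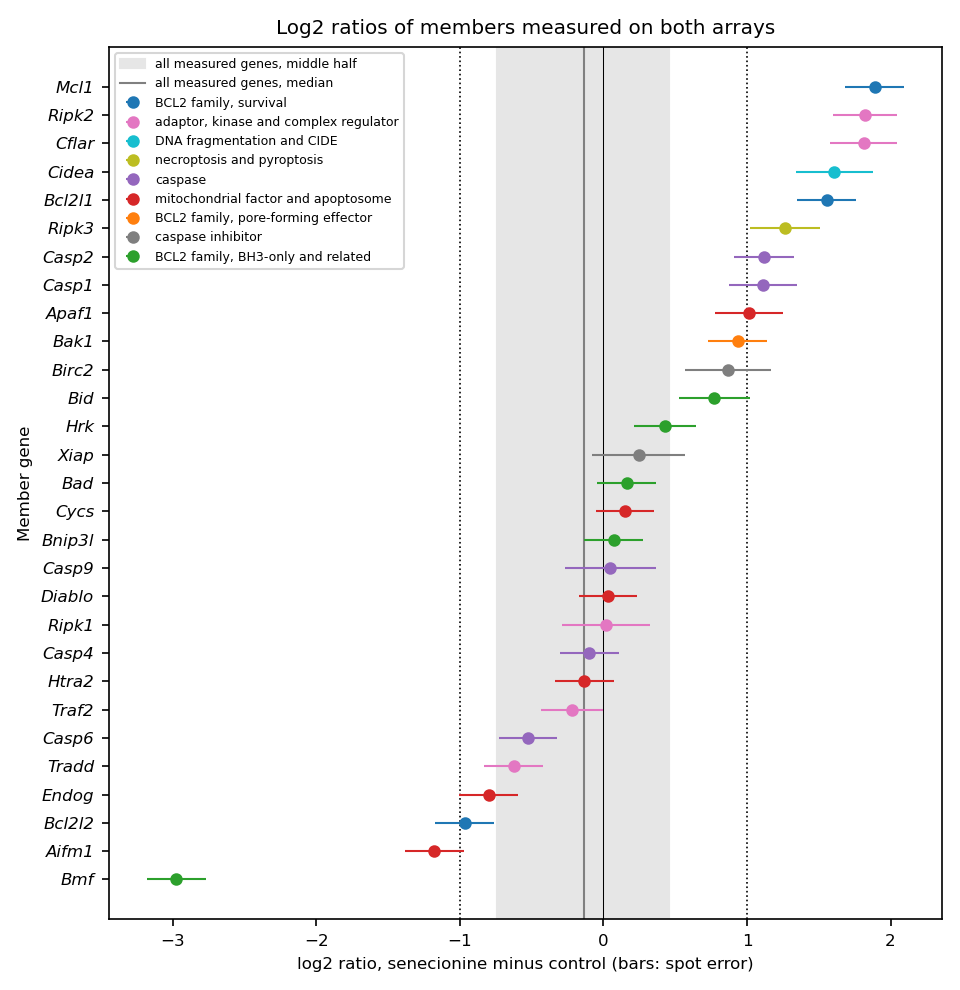
Log2 ratio, senecionine minus control, of the 29 members measured on both arrays, with the spot error as bars; the dotted lines mark 2-fold and the grey band the interquartile range of all 7803 measured genes. The ratios run between -2.98 (Bmf) and 1.89 (Mcl1), with 9 members right of the upper 2-fold line and 2 left of the lower one.

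The promoters of the members at the ends of this range are shown because they are the regulatory sequence of the genes that differed most: Mcl1 with the highest ratio, Bmf with the lowest, and Casp12 and Bcl2a1 with the only bounds past 2-fold. Each is the 300 bases around the annotated start (250 before and 50 after it), from RefSeq on GRCr8, read 5′ to 3′ on the gene's strand: Mcl1 at chr2:185907918-185908217, plus strand, Bcl2a1 at chr8:98596556-98596855, plus strand, Casp12 at chr8:10926938-10927237, plus strand and Bmf at chr3:125974015-125974314, minus strand. Capitals mark matches, on either strand, to motifs of NF-kappaB (GGG, any 5 bases, CC), AP-1 (TGANTCA), STAT (TTCNNNGAA), the ATF4-CHOP composite (TGATGNAA) and the TATA box (TATAAA), and overlapping matches run together.
Mcl1: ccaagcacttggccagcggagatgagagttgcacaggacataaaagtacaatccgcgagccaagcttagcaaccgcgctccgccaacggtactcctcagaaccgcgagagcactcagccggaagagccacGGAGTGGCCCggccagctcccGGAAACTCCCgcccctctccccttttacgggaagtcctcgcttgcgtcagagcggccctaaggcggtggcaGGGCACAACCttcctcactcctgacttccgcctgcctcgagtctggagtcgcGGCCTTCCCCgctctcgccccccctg
Bcl2a1: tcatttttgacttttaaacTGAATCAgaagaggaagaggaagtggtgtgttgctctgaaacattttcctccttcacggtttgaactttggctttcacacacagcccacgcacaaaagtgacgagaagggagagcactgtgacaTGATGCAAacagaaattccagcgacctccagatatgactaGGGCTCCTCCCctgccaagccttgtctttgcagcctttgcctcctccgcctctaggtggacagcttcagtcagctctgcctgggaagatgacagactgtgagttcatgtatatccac
Casp12: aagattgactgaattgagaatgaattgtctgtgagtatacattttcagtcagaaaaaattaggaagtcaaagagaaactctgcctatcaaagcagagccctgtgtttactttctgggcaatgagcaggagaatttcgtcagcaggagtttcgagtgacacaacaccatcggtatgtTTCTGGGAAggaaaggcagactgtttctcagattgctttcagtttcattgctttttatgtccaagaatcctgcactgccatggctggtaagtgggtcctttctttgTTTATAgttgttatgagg
Bmf: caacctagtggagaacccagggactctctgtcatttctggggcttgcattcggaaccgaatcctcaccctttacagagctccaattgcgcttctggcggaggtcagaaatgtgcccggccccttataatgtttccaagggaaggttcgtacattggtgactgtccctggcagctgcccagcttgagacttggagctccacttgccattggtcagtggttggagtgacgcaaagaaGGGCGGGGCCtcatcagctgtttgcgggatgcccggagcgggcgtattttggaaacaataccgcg

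The Mcl1 window held 4 matches to the NF-kappaB motif and none to the others. Bcl2a1 held an AP-1 match and an ATF4-CHOP match beside a pair of overlapping NF-kappaB matches. Casp12 held a STAT match and a TATAAA downstream of the start, and Bmf a single NF-kappaB match. The NF-kappaB motif is loose and was in 47.3% of all 33469 promoter windows, against 22 of 38 windows of the 35 members found in the table. AP-1 stood in 7.33% of all windows and 6 of 38 member windows, and STAT in 8.87% and 4 (2 of them windows of Bcl2l1). The ATF4-CHOP composite stood in 3.98% and 6 (3 of them windows of Bcl2l1), and TATAAA in 14.2% and 4. The 2 Bcl2l1 windows with STAT matches overlap, so the same STAT matches and the same ATF4-CHOP match count in both. A match is a run of letters and was not tested for binding.

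Survival members of the BCL2 family, which hold BAX and BAK in check, included 2 of the higher genes. Mcl1, a short-lived survival protein, had a scaled signal of 12.6 on the senecionine array and 3.41 on the control array, a 3.71-fold higher signal (log2 ratio 1.89 ± 0.20). Its other probe gave 6.25 on the senecionine array and 1.65 on the control array (log2 ratio 1.93 ± 0.21), so its probes differed by less than their spot error. The Mcl1 ratio lay at percentile 96.9 of all measured genes.

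Bcl2l1, which encodes BCL-XL, had 14.5 on the senecionine array and 4.94 on the control array (2.94-fold higher, log2 ratio 1.56 ± 0.20). Its 4 probes did not give 1 answer. One had 0.468 on the senecionine array and 0.151 on the control array (log2 ratio 1.63), not detected in control and at least 2.29-fold higher. The dimmest, also not detected in control, had a log2 ratio of 1.04 with both signals under the lowest detectable control level. Another probe, also well above background on both arrays, had 0.895 on the senecionine array and 0.971 on the control array (log2 ratio -0.12 ± 0.22), and the mean over the probes detected on both arrays was 0.72, within 2-fold. The brighter probe was designed on another RefSeq transcript record than the rest, and what the disagreement comes from was not tested.

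Bcl2a1, a survival protein best known from blood cells and a textbook NF-kappaB target, had 1.12 on the senecionine array and 0.200 on the control array. The control signal was not well above background, which makes the difference a bound of 5.50-fold, close to the measured log2 ratio of 2.49 ± 0.39. Bounds of this kind are taken against the higher of the control signal and the lowest detectable control level. They make no allowance for the spot error, so a bound written as at least is not a strict lower limit. Bcl2l2 (BCL-W) pointed the other way, with 2.999 on the senecionine array and 5.87 on the control array (log2 ratio -0.97 ± 0.20), just within 2-fold. Bcl2 itself was close to the detection limit. Its probe was spotted repeatedly, and the unflagged spots had a lowest, median and highest scaled signal of 0.134, 0.160 and 0.219 on the senecionine array (8 spots, 8 well above background) and of 0.0416, 0.0545 and 0.0695 on the control array (9 spots, 0 well above background). All Bcl2 spots of the senecionine array were brighter than any of the control array, but no fold is given, since its signal lay under the lowest detectable level of the control array.

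**Figure D3:**
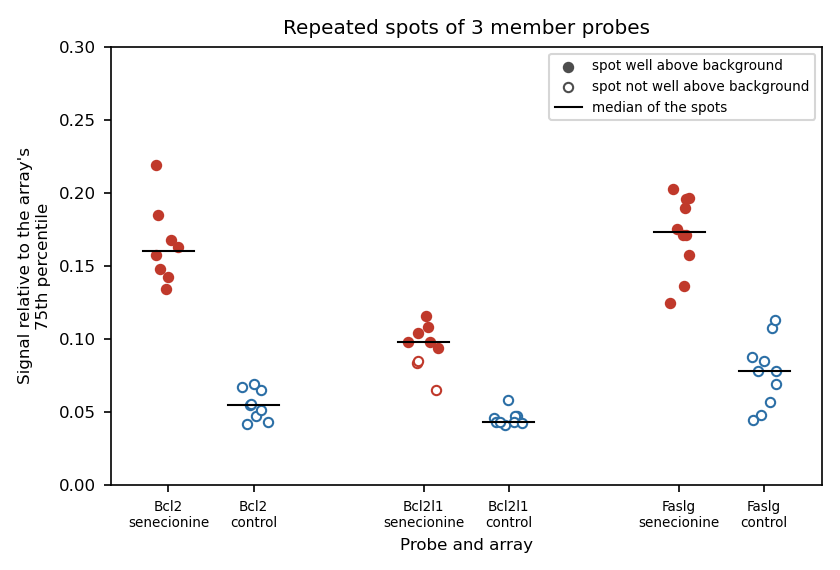
Scaled signal of each unflagged spot of the repeatedly spotted probes of Bcl2, Bcl2l1 (its dimmest probe) and Faslg, on the senecionine array (left of each pair) and the control array; filled points were well above background and lines are medians. For each probe every spot of the senecionine array lies above every spot of the control array, with medians of 0.160 and 0.0545 for Bcl2, 0.0981 and 0.0434 for Bcl2l1, and 0.173 and 0.0779 for Faslg. No control spot was well above background, so the gap is to the background of a less sensitive array and gives no fold. Spots repeat the measurement of 1 pool and are no replicates of the treatment.

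Of the pore-forming effectors, Bak1 had 3.35 on the senecionine array and 1.75 on the control array (log2 ratio 0.94 ± 0.21), just under 2-fold. Bok, a related protein, was detected only with senecionine, at 0.177, against 0.195 on the control array.

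Of the 7 BH3-only and related members, 5 were measured on both arrays. Of these, 0 were called higher and 1 lower, beside 11.2% and 17.7% of all measured genes. Bmf, a BH3-only protein that binds BCL2 proteins after loss of anchorage, had 1.01 on the senecionine array and 7.97 on the control array, which is 7.87-fold lower (log2 ratio -2.98 ± 0.21). Its ratio lay at percentile 1.33 of all measured genes, the lowest of the members, and it stayed at least 2-fold lower in each of 8 other settings, between -3.10 and -2.42. The authors' deposited table gives it a log2 difference of -2.94. Markers past 2-fold lower on the same arrays were 3 of 5 measured hepatocyte markers (summed scaled signal 2149 with senecionine and 3309 in control). So were 3 of 5 sinusoidal endothelial markers (38.4 with senecionine and 111 in control) and 6 of 7 neuron and glia markers. Of 11 macrophage and Kupffer cell markers 5 were lower and 3 higher (sum 162 with senecionine and 298 in control). Of 6 stellate cell markers 1 was lower and 2 higher, and of 9 T and NK cell markers 1 was lower and 2 higher. Of all measured genes 17.7% were lower. The part of these cell types in the value of Bmf was not tested.

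Bid, which caspase-8 cleaves to link death receptors to mitochondria, had 0.957 on the senecionine array and 0.560 on the control array (log2 ratio 0.77 ± 0.25). Bad had a log2 ratio of 0.16 ± 0.21 on its brighter probe and -0.84 ± 0.23 on the other, with both probes within 2-fold. Hrk, known mainly from neurons, stood at 0.43 ± 0.22, and Bnip3l (NIX), a mitophagy receptor, at 0.07 ± 0.20. Bcl2l11, which encodes BIM, had 0.364 on the senecionine array and 0.0478 on the control array, and Bik 0.376 on the senecionine array and 0.0540 on the control array. For both, the control signal was not well above background, and against the lowest detectable control level the bound was 1.78-fold for Bcl2l11 and 1.84-fold for Bik, short of 2-fold. The authors' deposited table gives Bik a log2 difference of 2.78 and has no value for the Bcl2l11 probe.

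Of the mitochondrial factors and the apoptosome, Apaf1 was higher and Aifm1 lower. Apaf1, which forms the apoptosome, had 1.10 on the senecionine array and 0.542 on the control array (2.02-fold higher, log2 ratio 1.02 ± 0.24). The call lay within its spot error of the 2-fold line, and the ratio was 0.89 with median scaling and 0.27 with normexp correction. Aifm1, a mitochondrial flavoprotein needed for the respiratory chain and able to enter the nucleus during death, had 45.6 on the senecionine array and 103 on the control array (2.26-fold lower, log2 ratio -1.18 ± 0.20). It was under 2-fold with quantile normalization, cyclic loess, normexp correction and no scaling, where it reached -0.77. Its probe has no value in the authors' deposited table, a list of probes past 2-fold.

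The other mitochondrial members lay within 2-fold. Cycs, cytochrome c, gave log2 ratios of 0.15, 0.45 and 0.04 on its 3 probes. Diablo (SMAC), which relieves caspase inhibition, stood at 0.03 ± 0.20, the protease Htra2 at -0.13 ± 0.20 and the nuclease Endog at -0.80 ± 0.21.

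Of the 5 caspases measured on both arrays, Casp2 and Casp1 passed 2-fold upwards and none downwards, beside 11.2% and 17.7% of all measured genes. Casp2, an initiator linked to DNA damage, had 5.56 on the senecionine array and 2.56 on the control array (2.17-fold higher, log2 ratio 1.12 ± 0.21). Casp1, which matures IL-1beta and IL-18 in inflammasomes, had 1.16 on the senecionine array and 0.539 on the control array (2.16-fold higher, 1.11 ± 0.24). Both calls lay within their spot error of the 2-fold line. With median scaling both ratios were just under 1, and with normexp correction that of Casp1 was 0.49.

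Casp12, a rodent caspase of the inflammatory cluster located at the endoplasmic reticulum, had 2.44 on the senecionine array and 0.240 on the control array, where it was not detected. That control signal lay above the lowest detectable control level, so its bound of 10.2-fold is the measured ratio (log2 ratio 3.35 ± 0.37). This was the larger of the 2 bounds past 2-fold among the 11 members detected with senecionine alone. Such detection on that array alone applied to 19.1% of all 13667 named genes with a value, and to 1.24% on the control array alone, where no member stood. Of those senecionine-only genes, 12.2% had a bound past 2-fold. In the authors' deposited table the log2 difference is 3.46 for Casp12 and 2.55 for Bcl2a1. Casp1, Casp4 and Casp12 are related in sequence, and whether their probes share transcripts was not tested.

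Casp8, the initiator at death receptors, had 0.209 on the senecionine array and 0.0518 on the control array, where it was not well above background, and its bound was 1.02-fold. Casp9, the initiator at the apoptosome, had 0.267 on the senecionine array and 0.258 on the control array (log2 ratio 0.05 ± 0.32). The inflammatory caspase Casp4 stood at -0.10 ± 0.21 and Casp6, an executioner, at -0.52 ± 0.20.

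**Figure D4:**
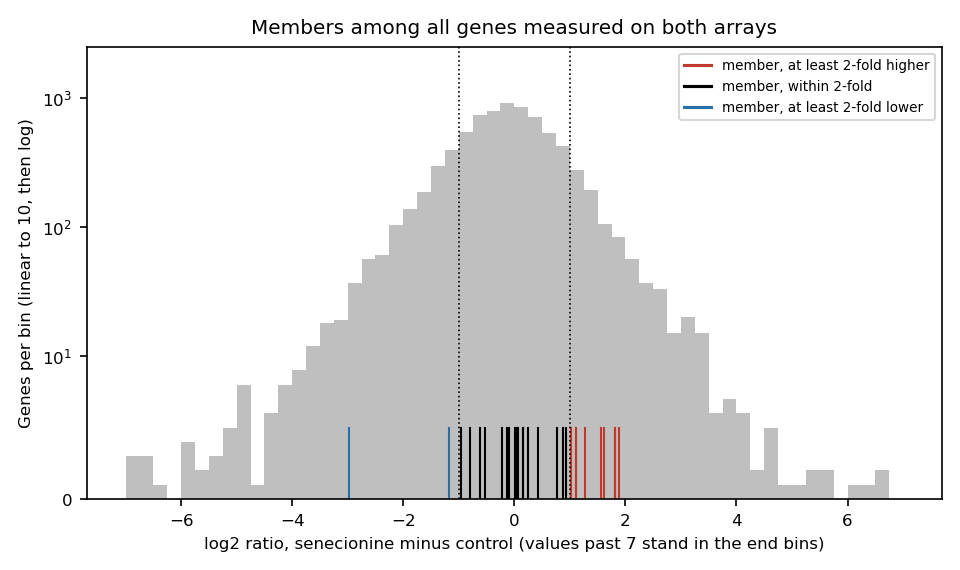
Histogram of the log2 ratio, senecionine minus control, of all 7803 genes measured on both arrays (grey, genes per bin; the vertical axis is linear to 10 and logarithmic above), with a tick for each of the 29 measured members. The 9 members at least 2-fold higher (red) lie between 1.02 and 1.89, inside the range of the other genes, and Bmf at -2.98 stands apart from the other members.

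Both death ligands were near the detection limit. Faslg, the FAS ligand of cytotoxic lymphocytes, had a lowest, median and highest spot signal of 0.125, 0.173 and 0.203 on the senecionine array (10 spots, 10 well above background) and 0.0443, 0.0779 and 0.113 on the control array (10 spots, 0 well above background). No fold is given, as both lay under the lowest detectable level of the control array. Tnfsf10, which encodes TRAIL, had 0.227 on the senecionine array and 0.226 on the control array.

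Adaptors and kinases of the receptor complexes held 2 of the larger ratios. Cflar, which encodes cFLIP, the caspase-8 inhibitor induced by NF-kappaB, had 2.30 on the senecionine array and 0.656 on the control array (3.51-fold higher, log2 ratio 1.81 ± 0.23), and stayed at least 2-fold higher in 8 of 8 other settings. Ripk2, the kinase of NOD receptors, had 2.81 on the senecionine array and 0.795 on the control array (3.53-fold higher, 1.82 ± 0.22). Its dimmer probe went the other way, with 0.152 on the senecionine array and 0.307 on the control array (log2 ratio -1.02 ± 0.38), so the direction for Ripk2 depends on the probe. The authors' deposited table holds both probes, with log2 differences of 1.88 for the brighter and -1.14 for the dimmer.

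The other 3 measured adaptors and kinases lay within 2-fold. Tradd, the adaptor of the TNF receptor, had log2 ratios of -0.63, -0.11 and 0.25 on 3 probes, Ripk1 one of 0.02 ± 0.30, and the ubiquitin ligase Traf2 one of -0.22 ± 0.21. Of the caspase inhibitors, Birc2 (cIAP1) stood at 0.87 ± 0.30 and Xiap at 0.25 ± 0.32, both within 2-fold.

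Ripk3, the necroptosis kinase that acts with Ripk1, had 1.78 on the senecionine array and 0.740 on the control array (2.40-fold higher, log2 ratio 1.26 ± 0.24), and with normexp correction the ratio was 1.00, just short of 2-fold. Among DNA fragmentation and CIDE genes, Cidea, a lipid droplet protein of brown fat that is low in normal liver, had 1.21 on the senecionine array and 0.398 on the control array (3.05-fold higher, 1.61 ± 0.27), and 0.90 with normexp correction. Dffb, the caspase-activated DNase, had 0.0982 on the senecionine array and 0.0470 on the control array, under the lowest detectable control level. Dffa, its inhibitor, had 0.240 on the senecionine array and 0.160 on the control array on its dim probe. A brighter Dffa probe carried an outlier flag on both arrays and was left out. It read 7.09 on the senecionine array and 25.6 on the control array (log2 ratio -1.85), and Dffa was called lower where outlier spots were kept.

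Sorted by action, the survival and caspase-blocking members (Bcl2, Bcl2l1, Bcl2l2, Bcl2a1, Mcl1, Cflar, Xiap and Birc2) had a median log2 ratio of 1.21 over 6 measured, with 3 higher and 0 lower. With the opposing Bcl2l1 probe the median was 0.56, with 2 higher and 0 lower. Initiator and inflammatory caspases with Apaf1 and the RIP kinases had a median of 1.06 over 8 measured, with 5 higher and 0 lower. With the opposing Ripk2 probe the median was 0.53, with 4 higher and 1 lower. Over all measured genes 11.2% were higher and 17.7% lower. Both groupings were made with values known, so they describe the members and test nothing.

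**Figure D5:**
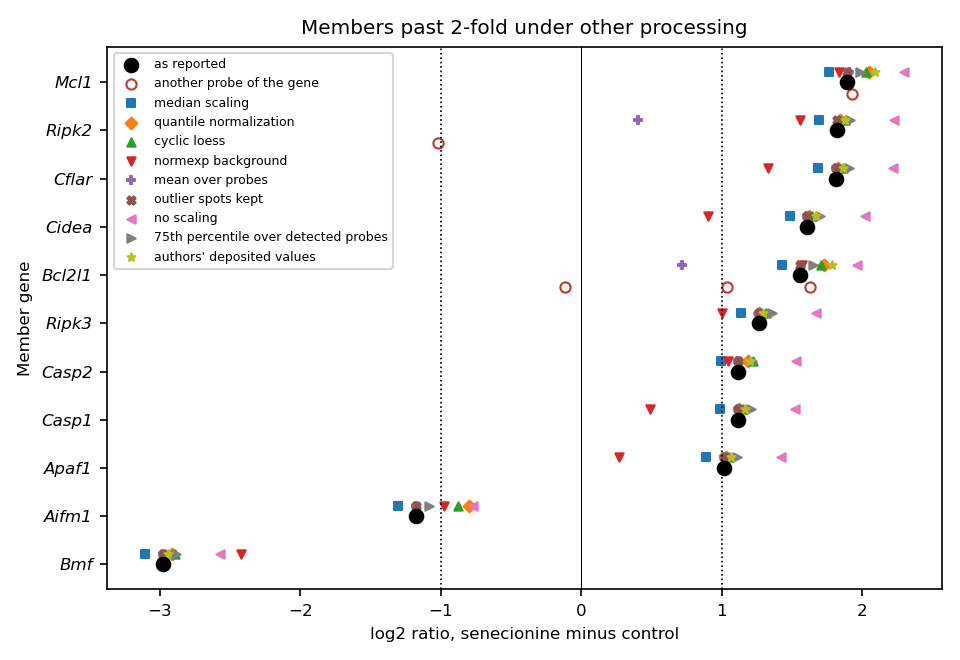
Log2 ratio, senecionine minus control, of the 11 members past 2-fold, as reported (black), under 8 other settings, in the authors' deposited values (10 of the 11) and on other probes of the gene (open red circles). Mcl1, Cflar and Bmf keep their side of the dotted 2-fold lines in all 8 settings, and the other probe of Ripk2 (-1.02) and 1 of the 3 other probes of Bcl2l1 (-0.12) fall on the other side of zero.

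Other genes of the pathways also counted more higher than lower. Of 95 listed, 65 had a signal on both arrays. Of these, 16 passed 2-fold upwards (24.6%, against 11.2% of all measured genes) and 4 downwards (6.15%, against 17.7% of all). Their median log2 ratio was 0.42, beside -0.14 for all measured genes. Of the p53 targets left out of the members, Bax was 4.50-fold higher (log2 ratio 2.17 ± 0.24), Fas 3.55-fold higher (1.83 ± 0.21) and Bbc3 stood at 0.74 ± 0.20, while Pmaip1 had no named probe.

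A pair of receptors outside the members had larger ratios than any member with both signals. Tnfrsf12a, the TWEAK receptor, had 9.17 on the senecionine array and 0.830 on the control array (11.1-fold higher, log2 ratio 3.47 ± 0.22). Tnfrsf1b, the second TNF receptor, was 5.09-fold higher (2.35 ± 0.21), whereas Tnfrsf1a, the death domain receptor of TNF, stood at 0.07 ± 0.20. The death receptor Tnfrsf21 was at least 3.82-fold higher. Tnf was seen on the senecionine array only, at 0.135, against 0.0443 on the control array.

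Further inhibitors and regulators were higher. Nol3 (ARC), a repressor of both routes, was 4.50-fold higher (2.17 ± 0.26) and Birc3 (cIAP2), an NF-kappaB target, 3.59-fold higher (1.85 ± 0.23). Bnip3, a mitophagy receptor induced by hypoxia, stood at 1.76, the kinases Ikbkb and Map3k7 at 1.40 each, Bag4 at 1.30, Bnip2 at 1.22, Il18 at 1.199, Il1b at 1.10, and Acin1 and Dapk1 at 1.09 each. Bnipl was at least 2.71-fold and Tmbim1 at least 2.21-fold higher. Ppif, cyclophilin D of the permeability transition pore, was 2.29-fold lower (log2 ratio -1.19 ± 0.20) and Tab1 stood at -1.15.

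Markers of other cells also differed between the arrays, where 11.2% of all measured genes were higher and 17.7% lower. Of 12 neutrophil markers, 3 of 3 measured were higher, S100a9 (log2 ratio 6.53), S100a8 (6.28) and Ncf1 (1.03). Another 6 were seen on the senecionine array only, 3 of them with a bound past 2-fold, while Elane read 0.109 with senecionine and 0.177 in control. The summed scaled signal was 72.3 with senecionine, of which S100a8 gave 34.1 and S100a9 33.0, and 2.36 in control. Among 11 macrophage and Kupffer cell markers, 3 lay past 2-fold upwards and 5 downwards, the widest being Gpnmb (3.66), Clec4f (-3.17) and C1qa (-2.09), with a sum of 162 with senecionine and 298 in control. Of 16 T and NK cell markers, which bear on Faslg, 9 had both signals, of which 2 passed 2-fold upwards and 1 downwards. These 9 summed to 9.07 with senecionine and 7.39 in control, and to 10.2 with senecionine and 7.69 in control with 4 more that were detected with senecionine alone. Cd2, Cd4 and Ncr1 were not well above background on either array. The part of these cells in the values of Bcl2a1, Casp1, Ripk3 and the other members was not tested.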

How the data were processed

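The authors read both arrays with Feature Extraction (Agilent, version 10.7.3.1, per the file headers), and its processed intensity is background-subtracted, with spatial and multiplicative detrend statistics listed per the file headers and no scaling between arrays. The deposited series table adds the authors' log2 values for 7404 probes; how these were scaled is not stated in any source here.

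Here the log2 processed intensity of each array was centred on the 75th percentile of its non-control spots. Flagged outlier spots (non-uniform or population) were dropped and spots of a probe averaged. A probe was detected where most of its spots were well above background. RefSeq accessions matched to the GRCr8 gene table named 17250 of 40516 probes, giving 13667 genes a value. The brightest probe detected on both arrays stood for a gene. A gene detected on 1 array got a bound. Single arrays allow no test. The counting was tested on simulated data. Both arrays came from 1 slide and 1 scan. Every member could be named. Of the other pathway genes, the 20 widest ratios or bounds past 2-fold were named, plus a few fixed genes, some of which are not reported here, and of each marker list up to 3. The members and lists were chosen with earlier results of these data known. Arc was dropped from the list of other genes after the data were seen, because the repressor ARC is Nol3. The files hold no mean spot signal, so normexp (offset 50) ran on median signals in limma 3.58.1 under R 4.3.3. All else used pandas 2.3.3 and numpy 2.4.6 in Python 3.11.15, with plots from matplotlib 3.10.9. The number of arrays limits the precision.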

Additional observations from a re-analysis of the deposited data

How the results depend on the processing

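No paired analysis was possible because each group had 1 array. No scaling and a 75th percentile over probes detected on both arrays were added after the data were seen. The median log2 ratio of all genes was -0.14 as reported and between -0.26 (median scaling) and 0.27 (no scaling) otherwise, so calls near 2-fold move with the scaling. The opposing probes of Ripk2 and Bcl2l1 together, also added after the data were seen, gave 7 members higher and 3 lower. The other probe of Ripk2 gave -1.02 and 1 other probe of Bcl2l1 gave -0.12, opposite to the reported values, and the cause was not tested.

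Member counts were 9 higher and 2 lower. Lower counts of 1 came with quantile normalization, cyclic loess, normexp and no scaling, where Aifm1 left the list. Lower counts of 3 came with median scaling, which added Bcl2l2, and with outlier spots kept, which added Dffa. Higher counts were 6 with median scaling, which lost Apaf1, Casp1 and Casp2, 7 with the mean over probes, which lost Bcl2l1 and Ripk2, 5 with normexp, which lost Apaf1, Casp1, Cidea and Ripk3, and 17 when detection on 1 array sufficed or with no filter, since genes dim on the control array then count. A 1.5-fold line gave 5 lower, and a 3-fold line 4 higher and 1 lower. The authors' deposited values gave 15 higher and 1 lower on the probe used for each member, in a table of 4003 higher and 3401 lower probes. The opposing Ripk2 probe, left out of that member count, is lower in the same table (-1.14). The members' median of 0.16 was 0.57 with no scaling and between 0.04 and 0.34 under the other alternatives.

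Counts of the other pathway genes were 16 higher and 4 lower. The lower count was 2 with quantile normalization, cyclic loess and the percentile over detected probes, 0 with normexp, no scaling and a 3-fold line, and 7 with no filter and a 1.5-fold line. The higher count was 10 with normexp, 25 with no scaling and a 1.5-fold line, and 7 at 3-fold. Marker counts, 12 higher and 19 lower, changed to 7 higher with normexp and 22 higher with either looser filter.

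Over all genes, 876 were higher and 1379 lower. Normexp gave 761 lower, no scaling 1620 higher and 787 lower, detection on 1 array 2389 higher, no filter 2394 higher and 3000 lower, 1.5-fold 1642 higher and 2424 lower, and 3-fold 366 higher and 615 lower. The member share stood above that of all genes for higher calls, and below it for lower calls, under every alternative run with both shares. With detection on 1 array or no filter, the members added to the higher calls were all detected on the senecionine array alone. Members were chosen with earlier results known, so these shares describe them and test nothing. Signal over background limits the 11 members dim on the control array.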
